A study of Mus musculus with 12 samples.

Results

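Thymocytes of T cell receptor transgenic mice were compared before and after the step from the CD4+CD8+ double-positive to the CD4+ single-positive stage, in mice without the receptor's antigen. The comparison set the 3 arrays titled B10 TCR single positive against the 3 titled B10 TCR double positive, that is, 6 of the 12 arrays of the study. All differences are single-positive minus double-positive. Mice were on the B10 background, carried the TCR transgene and were 6 to 8 weeks old and untreated. The labels call their single-positive cells positively selected and their double-positive cells pre-selection. The other 6 arrays hold the same 2 stages, with 3 arrays each, from TCR:HEL mice, which also carried a transgene for the antigen HEL and whose single-positive cells the labels assign to negative selection. In the design text one kind of mouse is just B10, and the groups here follow the titles. The labels do not give the promoter or cell type that drives either transgene, the MHC class that restricts the receptor, or whether a replicate was 1 mouse or a pool. The design text calls the replicates biological.

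Double-positive thymocytes derive from a burst of division that follows expression of the receptor's beta chain, after which small resting cells test their receptor on self peptides bound to MHC. A receptor signal of moderate strength rescues the cell from death, ends expression of one coreceptor and starts the programme of the mature single-positive T cell, with receptors and adhesion molecules for migration within the medulla and for exit from the thymus. Orphan nuclear receptors of the Nr4a family and early growth response factors are among the first genes that such a signal turns on.

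Signals are MAS5 intensities of Affymetrix MOE430B arrays on a linear scale, scaled by the authors to 1 level. Fold changes are on the log2(signal + 16) scale, which understates the change of dim genes, and are given with their SE. A probe set was called at an adjusted p under 0.05 in limma. Median signals of the 6 arrays ran from 62.9 to 72.9, and correlations between arrays of 1 group from 0.816 to 0.891. The first principal component of these 6 arrays, with 36.3% of the variance, placed the single-positive arrays at -56.1 to -17.8 and the double-positive arrays at 21.0 to 55.6. On the second component single-positive replicate 1 lay at 53.6, away from the others. Its Gapdh ratio of 5' to 3' signal, a measure that falls with RNA degradation, was the lowest of the 6 (0.0379). Stage and hybridization period largely coincided. All 3 double-positive arrays and single-positive replicate 2 belonged to period 2, single-positive replicate 1 to period 1 and replicate 3 to period 3. Only 1 single-positive array was therefore hybridized in the same period as the double-positive arrays. Medians within period 2 are given for the called probe sets and for some lists, but fold changes within period 2 are not given for single genes.

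Cd8a, a coreceptor gene that defines the sort, checked the labels. Its signals were 731, 705 and 516 on the single-positive arrays against 6684, 8034 and 7217 on the double-positive arrays, and the groups lay far apart. Cd4, Cd8b1, Rag1, Rag2, Zbtb7b, Ccr7, S1pr1 and Klf2 were not measured here, since the array type holds only part of the genome's genes. Arpp21 and Cd69 were the other defining genes measured. Arpp21, a double-positive stage gene, had signals of 2.65, 20.7 and 50.2 on the single-positive arrays against 204, 156 and 109 on the double-positive arrays. It fell by 2.24 (SE 0.41, adjusted p = 0.00524), and its single-positive signals lie near the low end of the scale. The call was lost without the 3 arrays with the lowest Gapdh ratios (adjusted p = 0.0766). A second probe set of Arpp21, at -0.74, did not pass. Cd69, an early activation marker, had signals of 946, 1365 and 2036 on the single-positive arrays against 628, 1214 and 826 on the double-positive arrays, which overlapped (adjusted p = 0.413).

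Among 13703 probe sets tested, 484 were called (3.53%), of which 153 were higher (1.12%) and 331 lower (2.42%) in single-positive cells. In each of the 484 the 3 single-positive values lay clear of the 3 double-positive values, which was so for 17.0% of all probe sets tested. The 153 had a median fold change of 1.75 and 52 of them reached 2, while the 331 had a median of -1.80 and 145 reached -2. The 153 included 100 named genes and the 331 included 239. With 1 probe set per gene, 5766 genes were measured and 300 called (5.2%), 84 higher (1.46%) and 216 lower (3.75%), with a median fold change of -0.02 over all genes. Of the 484 probe sets, all kept their sign with the hybridization period as a block, where 276 kept their call. The medians within period 2 were 1.76 for those called higher and -1.74 for those called lower. Since no groups overlap, the signs within period 2 were fixed in advance, and the calls had drawn on these same arrays. A fit of period 2 alone sets 1 single-positive array against 3 double-positive arrays and assumes that the lone array varies like the other groups. It called 112 probe sets, 15 of them higher, and 105 were among the 484.

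Many genes of cell division were lower in single-positive cells. Across 4 lists of mitosis, spindle, cell cycle control and DNA replication genes, 65 of 239 measured genes fell and 0 rose, with a median of -0.52 over the 239. They were 30.1% of all genes called lower. Of all 5766 measured genes 3.75% were called lower and 1.46% higher, shares to read beside each list count below. Over the 239 the median within period 2 was -0.53. In bulk RNA, fewer dividing cells and less of these RNAs per cell cannot be told apart.

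The kinetochore is the protein assembly that ties a chromosome's centromere to the spindle. Of 42 measured kinetochore, centromere and cohesion genes, 19 fell and the median was -1.26. Bub1b, a kinase-like protein of the mitotic checkpoint, had signals of 546, 415 and 90.0 on the single-positive arrays against 8209, 6412 and 7672 on the double-positive arrays. All single-positive arrays lay far below the dimmest double-positive array, and replicate 3 was the lowest. Spc24, a subunit of the Ndc80 complex that grips the microtubule, had 176, 229.7 and 117 on the single-positive arrays against 2868, 3990.3 and 2757 on the double-positive arrays. Cenpp, of the inner kinetochore, had 42.1, 77.5 and 22.5 against 894, 1871 and 974, and Cenpi, of the same layer, had 24.1, 12.3 and 10.2 against 278, 509 and 414. The fold changes of these 4 genes were -4.65 ± 0.51, -4.10 ± 0.37, -4.33 ± 0.44 and -3.71 ± 0.44, with adjusted p between 1.7e-05 and 0.00015 in limma, and all 4 were called in each alternative run. A second, dim probe set of Bub1b, at -0.33 with overlapping groups, did not pass.

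The chromosomal passenger complex corrects faulty attachments to the spindle. Its subunit gene Cdca8 was among the brightest of all, with signals of 2282, 1216 and 573 on the single-positive arrays against 14667, 13426 and 12954 on the double-positive arrays, and fell by 3.53 (SE 0.37), while 2 further probe sets of it were called at -4.49 and -4.60. Incenp, the scaffold of that complex, fell by 2.27 (SE 0.38, adjusted p = 0.00246). Genes that hold or release sister chromatids moved the same way. Sgo1, a protector of cohesion, had 22.8, 62.2 and 17.8 in single-positive and 443, 532 and 434 in double-positive cells and fell by 3.37 (SE 0.35), and Sgo2a fell by 2.59 (SE 0.44). The protease gene Espl1, which cleaves cohesin at anaphase, fell by 3.22 (SE 0.40), and the acetyltransferase gene Esco2, which establishes cohesion in S phase, fell by 3.77 (SE 0.50). Esco2 signals of 0.97, 15.8 and 1.53 on the single-positive arrays are close to the low end of the scale, so its fold change is a rough one. Cenpe, the centromere's motor protein gene, fell by 2.50 (SE 0.40), and Ncapd3, of condensin II, fell by 1.27 (SE 0.27).

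Among 68 genes of kinesins, spindle, centrosome and cytokinesis, 15 fell, 0 rose and the median was -0.67. Fbxo5, the inhibitor of the anaphase-promoting complex, had the smallest p of the list. Its signals were 377, 421 and 299 on the single-positive arrays against 4382, 3926 and 3065 on the double-positive arrays, with little spread in either group, and it fell by 3.32 (SE 0.24, adjusted p = 4.9e-06). Nek2, a centrosome kinase gene, had 152, 175 and 103 against 1769.9, 1670.3 and 2755 and fell by 3.70 (SE 0.30). One of its other probe sets fell as well (-2.14), and another, at 0.38, did not pass. Depdc1b fell by 3.58, the spindle genes Knstrn and Ckap2l had called fold changes of -2.76 and -2.78, and the kinesin gene Kif18b and the epsilon-tubulin gene Tube1 had -2.18 and -1.52. Arhgap11a and Arhgef39 had called fold changes of -2.30 and -2.26.

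Cyclins, E2F factors and cell cycle switches held 11 genes that fell among 46 measured, with 0 that rose and a median of -0.39. Cdc25c, the phosphatase that activates Cdk1 at entry into mitosis, had signals of 53.6, 97.5 and 47.7 on the single-positive arrays against 1217, 1218 and 791 on the double-positive arrays and fell by 3.75 (SE 0.34). Ccnf, which encodes cyclin F, had 40.3, 21.2 and 17.9 against 463, 373 and 418 and fell by 3.38 (SE 0.30). The other members that fell spanned G1 to mitosis. Ccne1, the cyclin of the G1 to S step, fell by 2.04 (SE 0.32), from 2653, 3009.7 and 2893 to 966, 874 and 374. Both activating and repressing E2F genes fell, with -1.81 for E2f1, -1.77 for E2f2 and -3.06 for E2f7, a repressor. The phosphatase gene Cdkn3 fell by 2.97, and calls near the threshold were Chek1, a checkpoint kinase gene (-1.59, adjusted p = 0.0381), and Lin54, a DNA-binding subunit of the MuvB complex at cell cycle promoters (-1.04, adjusted p = 0.0486).

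DNA replication and repair genes gave 22 that fell among 85 measured, 0 that rose and a median of -0.44. Mcm5, a subunit of the replicative helicase, had signals of 2844, 2532 and 1069.6 on the single-positive arrays against 14245, 11469 and 9859 on the double-positive arrays. Single-positive replicate 3 was lowest, and even the highest single-positive value was far under the lowest double-positive one. It fell by 2.56 (SE 0.33, adjusted p = 0.000324), although a second, dimmer probe set at 0.09 did not follow. Subunit genes of the GINS complex, which works with that helicase, fell too, with -3.18 ± 0.44 for Gins2, -2.39 ± 0.42 for Gins1 and -1.04 ± 0.22 for Gins3. Clspn, a mediator of the replication checkpoint, had 115, 152 and 154 against 1089.9, 1199.7 and 1626 and fell by 3.07 (SE 0.28). The helicase gene Pif1 and the clamp loader gene Dscc1 fell, at -3.59 and -2.58. Further along the replication machinery, called fold changes were -1.76 for Pold3 of polymerase delta, -1.34 for the clamp loader subunit Rfc2 and -1.42 for the topoisomerase gene Top2a (adjusted p = 0.0446). Rnaseh2b, which removes RNA from DNA, and Lig4, the ligase of end joining, fell as well, at -2.75 and -2.42.

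**Figure D1:**
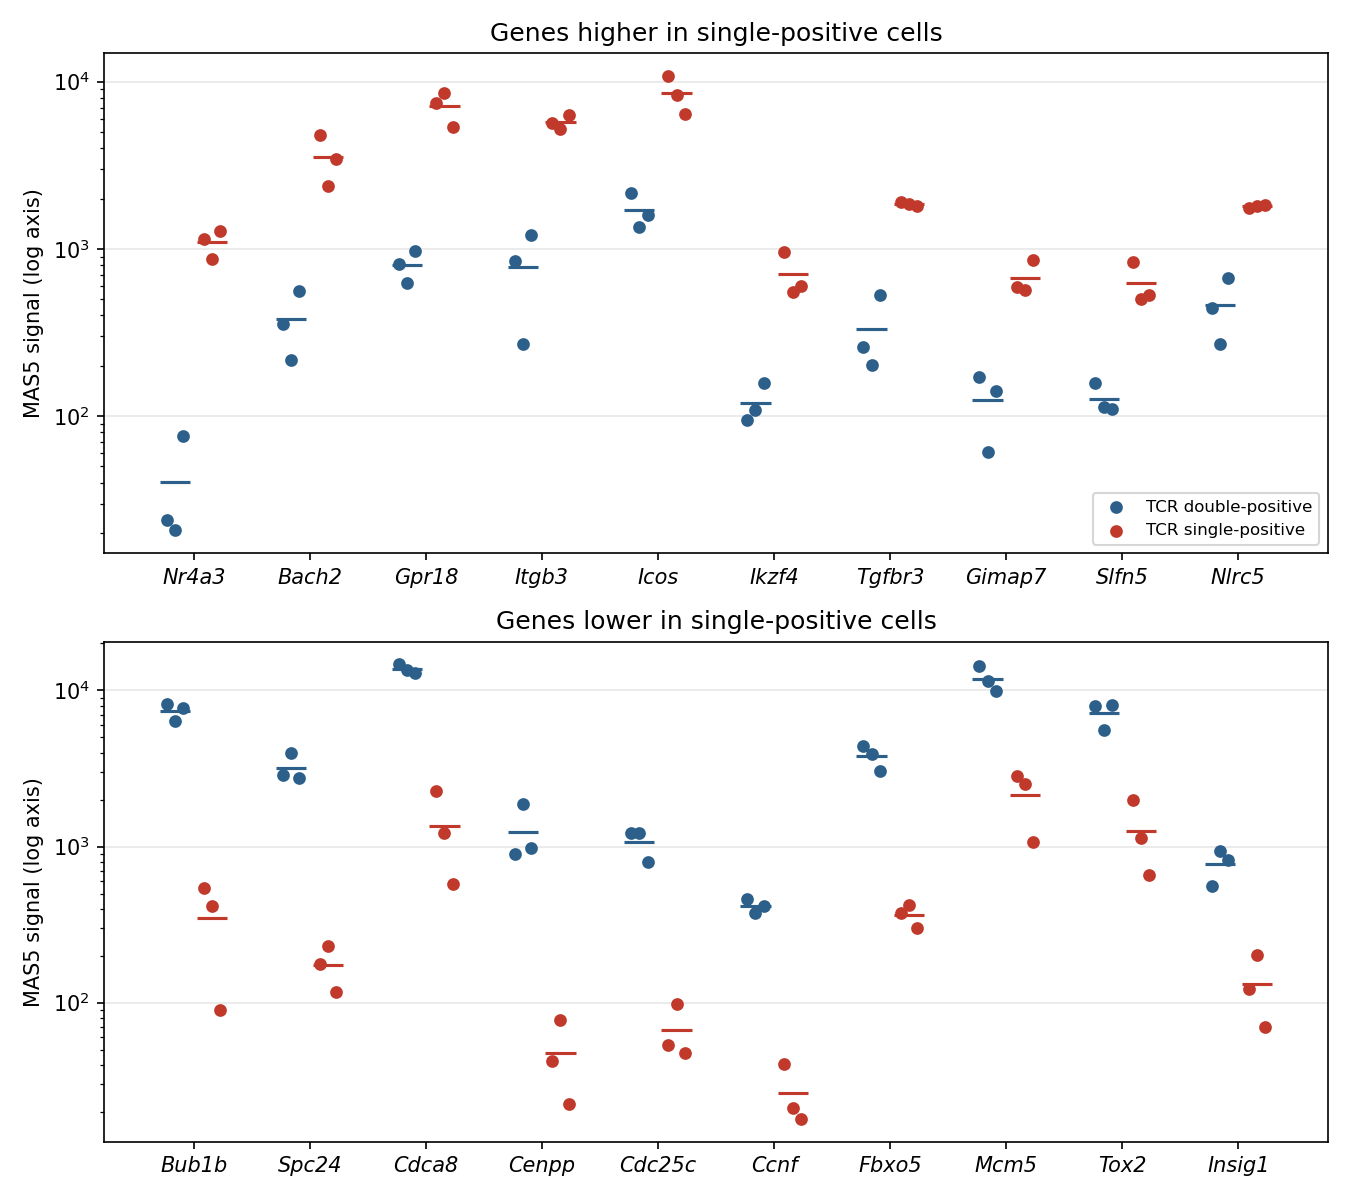
MAS5 signals (log axis) of 10 genes called higher and 10 called lower in TCR single-positive cells, with 1 point per array and a bar at the mean of the 3 arrays of each group. No gene's groups overlap, and for Bub1b the single-positive arrays lie at 546, 415 and 90.0 against 8209, 6412 and 7672 on the double-positive arrays.

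Because these genes moved together, their promoters were read for short motifs known from cell cycle genes. The sequences cover 250 bases before to 50 after each start site, from RefSeq on GRCm38.p6, and were at hand for 4657 of the 5766 measured genes, as 5965 promoters. Searched on both strands were CCAAT, the box bound by NF-Y, TTTGAA, the core of the cell cycle homology region bound by the DREAM and MuvB complexes, GCGGGAA, an E2F site, and a form of the interferon-stimulated response element, spelled GAAA, any 2 bases, GAAA. CCAAT stood in 34 of 55 promoters of the cell cycle genes that fell (61.8%), in 43.3% of promoters of the other genes that fell, in 25.8% of those of genes that rose and in 36.6% of all. TTTGAA stood in 36.4%, 20.8%, 13.5% and 12.6% of the same 4 groups. Both together stood in 30.9% of promoters of the cell cycle genes that fell and in 4.98% of all, and GCGGGAA in 20.0% and 7.78%. All measured genes of the 4 lists, called or not, had CCAAT in 52.6%, TTTGAA in 24.6% and GCGGGAA in 20.6% of promoters, so that for GCGGGAA the genes that fell did not stand above their lists. These shares are descriptions with no test. A match is a description of letters in this window and not a bound site.

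Promoters of 3 genes that fell are printed 5' to 3' on the strand of the gene, since each holds both motifs. They were chosen after the matches had been seen, and the promoters of Cenpp and Knstrn, which fell too, hold none of the 4 motifs. Capitals mark the matches, where ATTGG is CCAAT and TTCAAA is TTTGAA on the other strand, and in Cdca8 the last 2 matches overlap.
Cdca8 (GRCm38.p6, chr4:124936868-124937167, minus strand): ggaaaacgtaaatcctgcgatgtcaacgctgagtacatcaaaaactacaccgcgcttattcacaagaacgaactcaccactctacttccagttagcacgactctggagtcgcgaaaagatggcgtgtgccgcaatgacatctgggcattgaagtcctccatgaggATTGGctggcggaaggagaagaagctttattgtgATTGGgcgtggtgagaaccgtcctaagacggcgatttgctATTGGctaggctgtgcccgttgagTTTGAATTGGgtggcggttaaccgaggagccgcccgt
Fbxo5 (GRCm38.p6, chr10:5805416-5805715, minus strand): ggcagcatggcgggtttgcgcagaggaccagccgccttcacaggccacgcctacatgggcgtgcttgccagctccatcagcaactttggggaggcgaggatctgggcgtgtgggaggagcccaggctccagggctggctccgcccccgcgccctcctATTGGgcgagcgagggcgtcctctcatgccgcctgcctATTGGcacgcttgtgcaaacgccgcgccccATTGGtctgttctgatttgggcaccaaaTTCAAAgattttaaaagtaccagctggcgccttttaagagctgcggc
Ccnf (GRCm38.p6, chr17:24251360-24251659, minus strand): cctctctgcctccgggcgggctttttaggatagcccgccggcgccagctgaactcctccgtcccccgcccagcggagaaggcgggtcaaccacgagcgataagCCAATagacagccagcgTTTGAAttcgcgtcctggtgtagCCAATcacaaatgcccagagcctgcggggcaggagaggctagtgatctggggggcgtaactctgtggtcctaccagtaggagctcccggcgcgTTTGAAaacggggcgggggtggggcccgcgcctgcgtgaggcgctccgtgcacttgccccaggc
Cdca8 holds 4 CCAAT boxes and 1 TTTGAA, Fbxo5 holds 3 and 1, and Ccnf holds 2 of each.

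Outside the cell cycle lists 151 genes fell. The lowest of these were Arhgap19, which fell by 3.89 (SE 0.37) from 941, 966 and 1932 to 84.0, 57.6 and 59.7, with a second, uncalled probe set at -0.26, and Tmem107, a gene of the ciliary transition zone, which fell by 3.89 (SE 0.37). The orphan receptor gene Gpr25 had signals of 209.9, 78.8 and 22.9 on the single-positive arrays against 1445, 677 and 992 on the double-positive arrays and fell by 3.42 (SE 0.50, adjusted p = 0.000787). Among chromatin genes 3 fell. The maintenance methyltransferase gene Dnmt1 had 1071, 915 and 445 against 2449, 2895 and 4328 and fell by 2.02 (SE 0.37), and the histone methyltransferase gene Nsd2 and the high-mobility-group gene Hmgb2 had called fold changes of -2.37 and -2.12. The whole list of chromatin remodellers and modifiers had these 3 (2.86%) and 2 that rose (1.90%) of 105, with a median of 0.03. Over all measured genes the shares were 3.75% lower and 1.46% higher, so the list was near the background.

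Genes of mature single-positive cells and of egress stood on the other side, with 18 of 44 measured genes that rose, 0 that fell and a median of 0.78. The median was 0.97 within period 2. Gpr18, a receptor of lymphocytes, had signals of 7499, 8544 and 5375 on the single-positive arrays against 812, 627 and 976 on the double-positive arrays and rose by 3.12 ± 0.30 (adjusted p = 3.3e-05). Itgb3, the integrin beta 3 chain, had 5674, 5182 and 6299 against 846, 272 and 1211 and rose by 3.09 ± 0.43. The single-positive arrays were close to each other, whereas double-positive replicate 2 was low. Tgfbr3, a co-receptor for TGF-beta, had 1915, 1845 and 1817 against 257, 202 and 529 and rose by 2.55 ± 0.32. Gpr83, a receptor also known from regulatory T cells, rose by 2.56 ± 0.35, with single-positive replicate 3 at 501, below the others. The lymphocyte GTPase genes Gimap7 and Gimap8 rose by 2.37 and 1.23, the latter from 3720.5, 2963 and 2678 to 6136, 7067 and 8863.

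Other members of the list that rose act in migration, membrane lipids and signal limits. Gpr183, an oxysterol receptor that guides lymphocytes, rose by 1.35 ± 0.28 (adjusted p = 0.013), and Evl, an actin regulator, by 1.36 ± 0.24. The phosphodiesterase gene Pde3b had signals of 5829.7, 3939 and 5063 on the single-positive arrays against 2084, 1309 and 2131 on the double-positive arrays and rose by 1.43 ± 0.26. Rflnb, whose product binds filamin, rose by 2.52 ± 0.42 from 79.1, 122 and 85.9 to 649.9, 609 and 589, but a second, uncalled probe set had -1.26. Slfn5 rose by 2.14, Als2cl by 1.64, Dapl1 by 1.68, the sialyltransferase gene St8sia6 by 1.30, Treml2 by 1.13 and Tnfaip8l2, a negative regulator of immune receptors, by 1.26. Sgms1, a sphingomyelin synthase gene, rose by 1.46 (adjusted p = 0.00743, and adjusted p = 0.0741 with the period as a block). Sesn3, of the stress-responsive sestrins, rose by 1.78 (adjusted p = 0.0148) and was the only one of 29 measured apoptosis and survival genes to pass. Its call was lost without single-positive replicate 2 (adjusted p = 0.0535) or 3 (0.0786) and without double-positive replicate 1 (0.0628).

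The fit of period 2 alone called 2 of the maturation genes higher, where the other alternatives called 12 to 18, and it called 10 of the kinetochore genes lower, where the others called 17 to 20. Genes of the pre-selection stage had 4 that fell of 19 measured (Cd8a, Dgkeos, Arpp21 and Rmnd5a) and a median of -0.64, which was -0.21 within period 2. Dgkeos, on the strand opposite Dgke, fell by 2.81 (SE 0.42), from 679.7, 2033 and 616 to 174, 153 and 65.9. Rmnd5a had -0.97 (adjusted p = 0.0406, and adjusted p = 0.23 with the period as a block). The call of Rmnd5a was lost in 12 of the 19 alternatives other than the fit of period 2, including each run that left out 1 array.

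**Figure D2:**
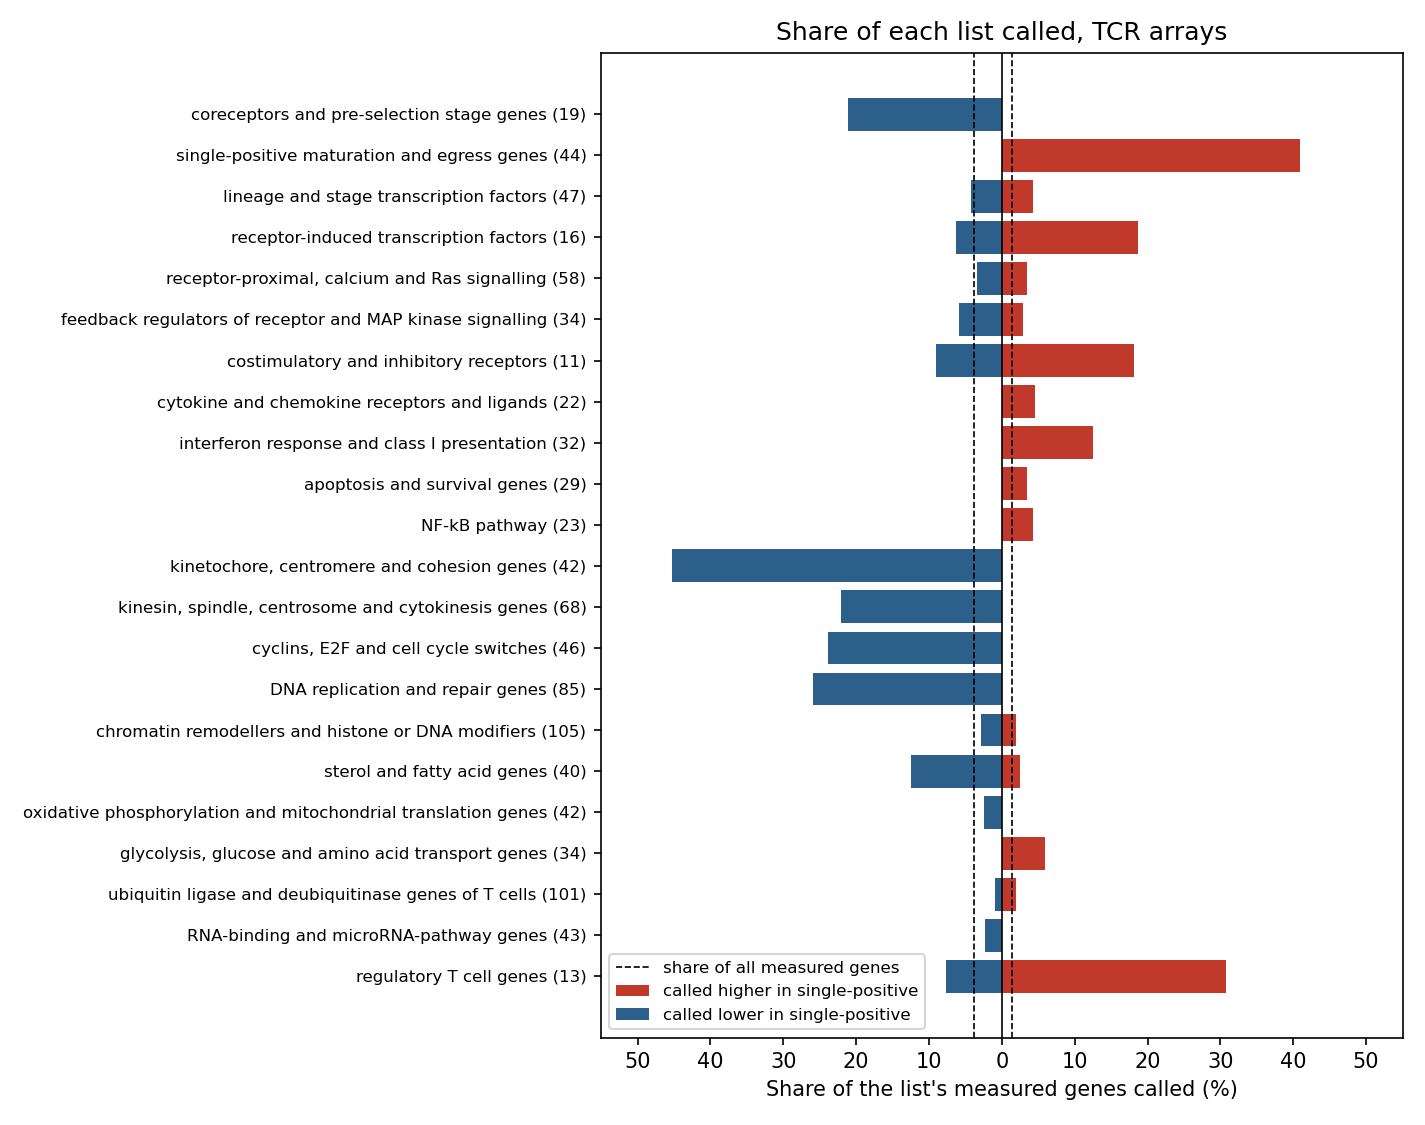
Share of each list's measured genes called higher (right) or lower (left) in TCR single-positive cells, in percent, for lists with at least 10 measured genes (number in brackets) other than 1 list not reported here. Dashed lines mark the shares over all measured genes, 1.46% higher and 3.75% lower, and the longest bars are the kinetochore list (19 of 42 lower) and the maturation list (18 of 44 higher).

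Transcription factors induced by receptor signals gave 3 that rose and 1 that fell of 16 measured, with a median of 0.44. Nr4a3, an orphan nuclear receptor gene, had signals of 1142, 865 and 1284 on the single-positive arrays against 23.9, 20.7 and 76.5 on the double-positive arrays. Double-positive signals near the low end make its fold change of 4.42 ± 0.44 (adjusted p = 3.6e-05) an understatement, and it was the highest of all named genes. Egr3, an early growth response factor, had 602, 338 and 837 in single-positive cells against 109 ± 57.7 (SD, n = 3) in double-positive cells and rose by 2.30 ± 0.40 (adjusted p = 0.00293, and adjusted p = 0.0624 without the 3 arrays with the lowest Gapdh ratios). Rora, a retinoid-related orphan receptor gene, rose by 1.64 ± 0.39 (adjusted p = 0.0281, and adjusted p = 0.0963 with the period as a block), and a further probe set of it was called at 2.12. The first probe set of Rora lost its call in 7 of the 19 alternatives other than the fit of period 2. The HMG-box gene Tox2 went the other way, from 7903, 5589.6 and 8098 to 1978, 1139.9 and 658, and fell by 2.62 (SE 0.42, adjusted p = 0.00178).

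Lineage and stage transcription factors showed few calls, with 2 that rose and 2 that fell of 47 and a median of -0.09. Lists share genes, and the 2 that fell, Tox2 and E2f2, were already counted in lists above. Bach2, a repressor that restrains effector differentiation, had signals of 4805, 2382 and 3464 on the single-positive arrays against 357, 218 and 562 on the double-positive arrays and rose by 3.21 ± 0.35 (adjusted p = 6.8e-05), while a second probe set, at 0.86, did not pass. Ikzf4, which encodes Eos of the Ikaros family, had 953, 555 and 603 against 94.6, 109 and 157 and rose by 2.39 ± 0.28. Ikzf4 and Gpr83 also belong to the list of regulatory T cell genes, where 4 rose and 1 fell of 13. Foxp3, the defining factor of those cells, was not measured here. Ikzf2, or Helios, of the same list had 887, 1327 and 1291 against 2266, 2248 and 2040.3 (fold change -0.92, adjusted p = 0.0696), and Niban1 had 0.44 (adjusted p = 0.559). The summed signal of the 13 genes was 4657 to 6344 in single-positive and 4768 to 4953 in double-positive cells, and the part of such cells in the result was not tested.

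Among costimulatory and inhibitory receptors 2 rose and 1 fell of 11, with a median of -0.22 that was 0.61 within period 2. Icos, a costimulatory receptor of the CD28 family, had signals of 10852, 8272 and 6434 on the single-positive arrays against 2155, 1344 and 1604 on the double-positive arrays and rose by 2.31 ± 0.27 (adjusted p = 0.000126). Btla, an inhibitory receptor, had 2239, 4787 and 4143 against 1279.7, 1429 and 1192 and rose by 1.44 ± 0.29. Its call was narrowly lost without single-positive replicate 2 (adjusted p = 0.0517) or 3 (0.0532). Nrp1, the semaphorin receptor gene, fell by 1.46 (SE 0.30), from 801, 460.3 and 372 to 189, 133 and 224, a call lost without single-positive replicate 2 (adjusted p = 0.058), without double-positive replicate 1 (0.0603) and without the 3 arrays with the lowest Gapdh ratios (0.0956).

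Signalling genes changed in small numbers. Of 58 receptor-proximal, calcium and Ras genes 2 rose and 2 fell, with a median of 0.05. That is 3.45% each way, against 1.46% higher and 3.75% lower over all measured genes. The kinase gene Mapkapk3, a target of p38, had 3723, 2694 and 1712 against 570.4, 472 and 604 and rose by 2.21 ± 0.31. The adaptor gene Nck2 had 99.4, 94.3 and 40.2 against 471, 614 and 887 and fell by 2.87 (SE 0.35), and the diacylglycerol kinase gene Dgke fell by 1.85 (adjusted p = 0.00965, and adjusted p = 0.151 with the period as a block). The channel gene Trpm1 rose by 1.97 ± 0.41, from 15.2, 27.2 and 21.8 to 50.5, 269 and 146. Its double-positive signals lie near the low end of the scale. Of the 6 TCR arrays only single-positive replicates 2 and 3 had Trpm1 above the array median, and the filter on 6 arrays removed it. The call was lost without single-positive replicate 2 (adjusted p = 0.0575) or 3 (0.0587), without double-positive replicate 1 (0.0532) and in a fit of the 6 TCR arrays alone (0.0978). A second, dim probe set of Trpm1, at 0.10, did not pass.

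Feedback regulators had 1 that rose (2.94%) and 2 that fell (5.88%) of 34, with a median of 0.12. Nfkbid, an atypical inhibitor of NF-kB, had signals of 1709, 3167 and 1461 on the single-positive arrays against 513, 294 and 581 on the double-positive arrays, with single-positive replicate 2 the highest, and rose by 2.12 ± 0.39. It was also the only one of 23 NF-kB pathway genes to pass (list median 0.27). The MAP kinase phosphatase gene Dusp4 fell by 1.39 (SE 0.29, adjusted p = 0.0128), from 439, 443 and 889 to 228, 218 and 167, and lost its call without single-positive replicate 3 (adjusted p = 0.0626) or double-positive replicate 3 (0.0585), when period was a block (adjusted p = 0.0618) and in a fit of the 6 TCR arrays alone (0.0675). Sla, an adaptor that dampens the receptor, fell by 1.21 (adjusted p = 0.0245) from 3514, 2379 and 3478 to 1379.8, 1308 and 1264, a call lost in 8 of 20 alternatives, and a second probe set at -0.09 did not pass.

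Interferon response and class I presentation genes had 4 that rose, 0 that fell and 24 of 32 with a positive fold change, at a median of 0.48. Nlrc5, the transactivator of class I genes, had 1751, 1812 and 1819 against 445, 270.1 and 672, a narrow range in single-positive cells, and rose by 2.01 ± 0.33 (adjusted p = 0.0019). Slfn5, of the interferon-inducible Schlafen family and also counted in the maturation list, had 840.2, 505 and 528 against 158, 113 and 110.5. It rose by 2.14 ± 0.29, while 2 other probe sets of it, at 0.65 and 0.28, did not pass. Parp14 and Trim30d rose by 2.00 (adjusted p = 0.0281) and 2.20 (adjusted p = 0.0336), and both calls were lost in 9 of 20 alternatives. The response element stood in 9 of 34 promoters of this list's measured genes (26.5%), in 8.99% of promoters of all genes that rose and in 2.50% of all promoters. Slfn5 and Trim30d were the 2 genes of these 4 with a promoter at hand, and both hold it. They are printed for that reason, with the same marking, and in Trim30d the element lies on the other strand.
Slfn5 (GRCm38.p6, chr11:82951852-82952151, plus strand): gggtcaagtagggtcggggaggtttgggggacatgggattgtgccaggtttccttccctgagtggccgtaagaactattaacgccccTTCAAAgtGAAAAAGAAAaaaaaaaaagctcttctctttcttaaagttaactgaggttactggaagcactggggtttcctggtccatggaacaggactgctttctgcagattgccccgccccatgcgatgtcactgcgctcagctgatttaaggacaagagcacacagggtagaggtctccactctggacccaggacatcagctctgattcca
Trim30d (GRCm38.p6, chr7:104507800-104508099, minus strand): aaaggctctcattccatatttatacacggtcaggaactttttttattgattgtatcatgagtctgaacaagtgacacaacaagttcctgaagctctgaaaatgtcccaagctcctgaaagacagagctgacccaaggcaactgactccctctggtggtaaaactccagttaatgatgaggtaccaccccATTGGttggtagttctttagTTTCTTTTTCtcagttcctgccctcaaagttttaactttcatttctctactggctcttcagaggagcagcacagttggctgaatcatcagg

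The non-muscle myosin gene Myh10 fell by 2.42 (SE 0.43), from 379, 391 and 565 to 154, 26.4 and 68.3, and the myosin gene Myo1f and the receptor gene P2ry10 had called fold changes of -1.13 and -1.57.

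Sterol and fatty acid genes had 5 that fell and 1 that rose of 40, with a median of 0.02. Insig1, the brake on sterol synthesis that is itself a target of SREBP, had 123, 201 and 70.1 against 558, 929.6 and 815 and fell by 2.48 (SE 0.32, adjusted p = 0.000326). The acyl-CoA synthetase gene Acsl3 had 185, 192 and 194 against 619, 569 and 725 and fell by 1.66 (SE 0.25), while 2 other probe sets of it, at -0.85 and -0.91, did not pass. Acaca, which makes malonyl-CoA for fatty acid synthesis, fell by 1.59 (adjusted p = 0.022), a call lost in 6 of 20 alternatives, and Agpat5 fell by 1.04 (adjusted p = 0.0479), a call lost in 14.

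The remaining lists held few calls, with 5.88% higher for the glycolysis and transport genes against 1.46% of all measured genes. Glycolysis and transport genes had 2 that rose of 34 (Tbc1d1 and Tigar), both lost in 14 of 20 alternatives. Of 42 oxidative phosphorylation and mitochondrial translation genes only Ndufs4 fell (-0.99, adjusted p = 0.0316), a call kept in 7 of 20 alternatives and lost when period was a block (adjusted p = 0.169). Of 43 RNA-binding and microRNA-pathway genes only Mbnl3 fell (-1.57, adjusted p = 0.0358), a call kept in 9 of 20 and likewise lost when period was a block (adjusted p = 0.339). Ubiquitin ligases and deubiquitinases had 2 that rose (Asb2 and Rnf213) and 1 that fell (Rnf216) of 101. With the period as a block Rnf213 had an adjusted p of 0.157 and Rnf216 one of 0.0945. Of the 19 alternatives other than the fit of period 2, Rnf213 lost its call in 11 and Rnf216 in 3. Asb2 was called in all 20 alternatives, with signals of 283, 575 and 281 on the single-positive arrays against 84.3, 119 and 95.2 on the double-positive arrays and a rise of 1.71 ± 0.33. Cytokine and chemokine receptors and ligands had Tgfbr3 as the only call of 22. Chd7, a chromatin remodeller, rose by 2.62 ± 0.56 from 164, 24.7 and 84.6 to 458, 813 and 422, and lost its call without single-positive replicate 2 (adjusted p = 0.0702) or double-positive replicate 2 (0.0758). Chd3 rose by 1.16 (adjusted p = 0.0486) and lost its call in 13 of 20.

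Some of the highest fold changes belonged to genes in no list. The zinc finger gene Zfp467 had 1240.4, 778 and 851 against 118, 65.1 and 183 and rose by 2.88 ± 0.34. The adhesion gene Amigo2 had 146, 433 and 279 against 29.9, 3.86 and 42.4 and rose by 2.88 ± 0.51. It passed the filter only through the TCR single-positive arrays, and the filters on 6 arrays and on the mean removed it. Its double-positive signals lie near the low end of the scale. Nol4l rose by 2.63 ± 0.42. Tmie, known for its role in mechanotransduction by hair cells, had 1007, 585 and 1261 against 196, 133 and 116 and rose by 2.52 ± 0.45 (adjusted p = 0.00355).

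Markers of other cells were read beside these results. Of 4 measured B cell markers and 7 of dendritic cells and macrophages, 0 passed in limma, and 1 and 0 had an unadjusted p under 0.05. Summed signals of the B cell markers were 351 to 482 in single-positive and 436 to 547 in double-positive cells, and those of dendritic cells and macrophages 818 to 1556 and 1284 to 1413. For NK, NKT and gamma-delta markers (3 genes, 0 called) they were 674 to 833 and 973 to 2110.4. The gap in that sum came from Cd163l1, with 668, 519 and 615 against 1464, 846 and 1985 (adjusted p = 0.0731), of which a second probe set fell by 1.57 (adjusted p = 0.0308). Double-negative thymocyte markers (4 genes, 0 called) had 1599.9 to 1819.98 and 1650.01 to 2833. Markers of CD8 single-positive cells had Cd8a as the only call of 4. Among 7 stromal markers 1 rose, the matrix gene Dcn, with 141, 94.5 and 115 against 36.7, 28.7 and 48.8 (1.30 ± 0.31, adjusted p = 0.0308). That call was lost in 11 of 20 alternatives. Their summed signal was 2682 to 4589 in single-positive and 1199 to 2822 in double-positive cells, most of it from Epcam (3589.8, 1927 and 2730.0 against 2012, 1548 and 506, adjusted p = 0.244). Markers too dim for the filter were left out, so these counts cover the brighter ones. Kept were 7 of 13 dendritic cell and macrophage markers on the array, 7 of 13 stromal markers and 3 of 6 NK, NKT and gamma-delta markers. A marker kept by the filter could hardly be at 0 throughout, and none was. Itgax and Ncr1 were not measured here, and the part of these other cell types in the results was not tested. Of erythroid, platelet and granulocyte markers 1 was on the array and 0 were measured.

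The same step was set beside TCR:HEL mice, whose 6 arrays are other samples. Their single-positive arrays belonged to periods 1, 3 and 3 and their double-positive arrays to periods 2, 2 and 3. Single-positive replicates 1 and 3 shared their hybridization days with the same-numbered TCR arrays. Stage and period thus partly coincided here too, and likeness between both kinds of mice is not independent of period. In TCR:HEL mice 271 probe sets were called (1.98%), 120 higher (0.876%) and 151 lower (1.1%). With 1 probe set per gene these were 167 genes (2.9%), 65 higher (1.13%) and 102 lower (1.77%). Called in both kinds of mice were 173, which is 35.7% of the TCR calls and 63.8% of the TCR:HEL calls, and 172 of them had the same direction. Of the TCR calls 145 of 153 and 325 of 331 had the same sign in TCR:HEL mice, against 63.7% of all probe sets tested. Over all probe sets the fold changes of the 2 steps correlated at r = 0.54, as a description across probe sets, which are not independent.

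Of the 65 cell division genes that fell in TCR mice 33 also fell in TCR:HEL mice, and over all 239 measured the median was -0.53 there. Fbxo5 fell by 2.39 in TCR:HEL mice (adjusted p = 0.000103), Spc24 had -2.57 (adjusted p = 0.00142) and Bub1b -2.15 (adjusted p = 0.0401). Of the maturation list 9 rose and 0 fell there, with a median of 0.55, and the interferon list had a median of 0.65. Nr4a3 rose by 5.88, Icos by 2.74 and Bach2 by 2.79. Rflnb had 0.00 (adjusted p = 0.999) and Tmie -0.10 (adjusted p = 0.957), and Cenpe had -0.25 (adjusted p = 0.868). A call in one kind of mouse and none in the other does not show a difference.

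The test of the difference itself, an interaction term over all 12 arrays, called 1 of 13703 probe sets (0.0073%), which is 1 of 5766 genes (0.0173%). An unadjusted p under 0.05 was found for 609 probe sets, no more than that threshold alone would give. The called probe set belongs to Osbp2, an oxysterol-binding protein gene. Its signals were 33.3, 22.1 and 20.8 on the single-positive arrays against 96.6, 53.3 and 128 on the double-positive arrays in TCR mice and 223, 187 and 169.6 against 36.1, 26.1 and 26.9 in TCR:HEL mice. It fell by 1.34 (SE 0.35, adjusted p = 0.0486) without antigen, a call near the threshold that held in 5 of 18 alternatives and was lost when period was a block (adjusted p = 0.163). It rose by 2.19 with antigen (adjusted p = 0.00324), and the difference was -3.53 ± 0.50 (SE, adjusted p = 0.0487). Signals of at most 128 on the TCR arrays make this a dim gene.

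**Figure D3:**
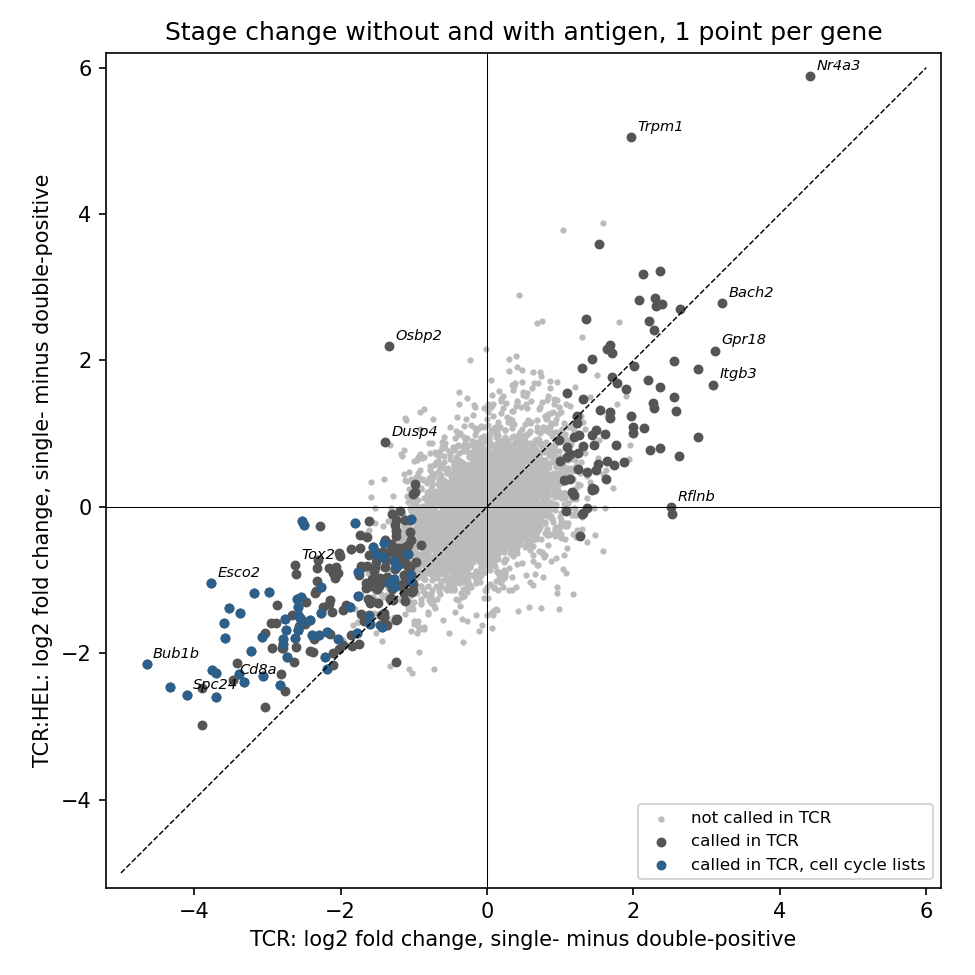
Log2 fold change from double- to single-positive cells in TCR mice (horizontal) and TCR:HEL mice (vertical), with 1 point per measured gene, genes called in TCR mice in dark grey or, for the cell cycle lists, blue, and a dashed line of equal change. Most called genes lie at the lower left and upper right, and Osbp2 (-1.34 and 2.19) lies in the upper left.

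**Figure D4:**
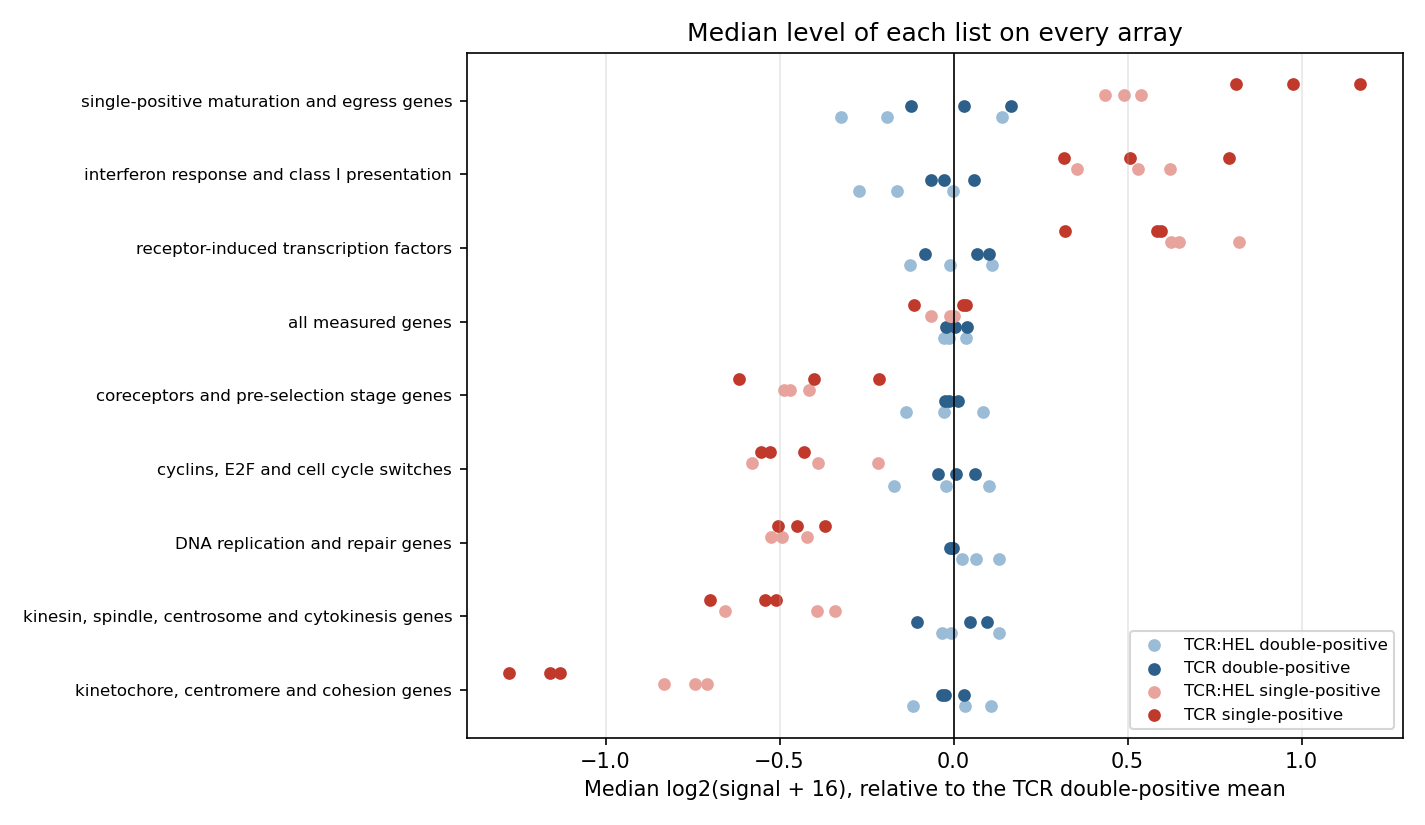
Median log2(signal + 16) of each list's genes on each of the 12 arrays, relative to the mean of the 3 TCR double-positive arrays, with 1 point per array. The kinetochore genes lie at -1.28 to -1.13 on the TCR single-positive arrays and the maturation genes at 0.81 to 1.17, against -0.11 to 0.03 for all measured genes.

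Array by array, the median kinetochore gene stood at -1.16, -1.28 and -1.13 on TCR single-positive replicates 1, 2 and 3, relative to the double-positive mean, and the median maturation gene at 0.81, 0.97 and 1.17. Replicate 2, the array hybridized in the same period as the double-positive arrays, lay at -1.28 and 0.97, next to or between the other arrays. On the TCR:HEL single-positive arrays the same medians were -0.83 to -0.71 and 0.43 to 0.54. The ranges of the 2 kinds of single-positive cells did not overlap in either list, which is a description and was not tested. They did overlap in the other cell division lists. In TCR and TCR:HEL mice they were -0.70 to -0.51 and -0.66 to -0.34 for the kinesin and spindle list. For cyclins and switches they were -0.55 to -0.43 and -0.58 to -0.22, and for replication and repair -0.50 to -0.37 and -0.53 to -0.42.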

How the data were processed

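The deposited table holds MAS5 signal intensities per probe set, on a linear scale, which the authors made with MAS5 per the submitters' processing notes; version and settings are not given in the sources used here. The 2% trimmed mean was 150 on each array. Per the labels, RNA of 100000 to 1000000 sorted cells was labelled with a small-sample protocol. The deposited scanner records gave chip and hybridization day, not expression, and gaps of over 35 days defined 3 periods.

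From 22575 probe sets, 64 controls were removed, and 13703 were kept that exceeded the array median on 3 or more of 12 arrays. Log2(signal + 16) was fitted with limma 3.58.1 in R 4.3.3 as 4 group means over 12 arrays with trended empirical Bayes (8 residual degrees of freedom, 7.01 prior), and two-sided tests had Benjamini-Hochberg adjustment over all of them, with calls at 0.05. The script was tested on simulated data. The number of arrays, 3 per group, limits precision, and no detection calls were used.

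Of the kept probe sets 9319 had 1 symbol, 149 several and 4235 none. For each gene the brightest probe set was used. Symbols, updated through RefSeq tables (39 changed), carry no positions, since the array's build was not stated. Named genes were the 15 highest and 15 lowest called, up to 6 members of each of 30 lists by p, and the stage markers, and further called list members were named with their values in view. The comparison, lists and rules were chosen with earlier results of these data known. Some listed items and 1 gene list are not reported here.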

Additional observations from a re-analysis of the deposited data

Results flagged for a closer look

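Osbp2 was singled out because its change from double- to single-positive cells differed between TCR and TCR:HEL mice in the interaction test (difference of log2 fold changes -3.53, limma adjusted p = 0.0487). The difference was also called with a pseudocount of 64, without the empirical Bayes trend and without TCR double-positive replicate 2. It missed the threshold in the other alternatives that held the probe set, with adjusted p of up to 0.403 without the 3 arrays with the lowest Gapdh 5' to 3' ratios, and the filter on 6 arrays and the filter on the mean removed it.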

How the results depend on the processing

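The 484 calls of the stage change became 313 with the hybridization period as a block (276 shared), 303 in a fit of the 6 TCR arrays alone (295 shared), and, in fits added after the data were seen, 320 without the 3 arrays with the lowest Gapdh 5' to 3' ratios (266 shared) and 112 within period 2 (105 shared), where the share called higher was 13.4% instead of 31.6%. Leaving out 1 array gave 293 (without single-positive replicate 3) to 417, and pseudocounts, filters, quantile normalization, median centring and untrended moderation 403 to 501. Same-numbered arrays deviated together at r = 0.05, 0.29 and 0.01, and differently numbered arrays at -0.22 to 0.15. With 3 arrays per group this cannot show whether the numbers pair the samples. With the replicate number as a block the count was 622 (464 shared). The interaction gave 0 calls in most alternatives (0 with the replicate block), 4 with a pseudocount of 64, 1 without trend, and 0 to 1 with 1 array left out. At an unadjusted p under 0.05 it gave 507 to 1036, the 1036 of 22511 probe sets with no filter on low values. Of the 84 called genes picked by the naming rule, 57 kept their call in the 19 alternatives other than period 2, and 0 changed sign. Called list members named beyond that rule, such as Incenp and Gins2, are not in this count. Where groups do not overlap, leaving out arrays cannot reverse a sign, so for those alternatives the 0 was fixed in advance. Of the same 84 genes, 8 had other, uncalled probe sets that pointed the other way. They were Agpat5 (0.087), Knstrn (0.042), Mcm5 (0.089), Nek2 (0.38), Nsd2 (1.32), Rflnb (-1.26), Rora (-0.98) and Tmem107 (0.19). Other probe sets of the further called list members were not looked at here. The cause was not tested. Signals under 100 in the lower group, in 54 of the probe sets called higher and 134 of those called lower, limit how well a fold change is known.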
